A study of Mus musculus with 2 samples.

Results

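The elastic fibre, proteoglycan and matricellular genes are the non-collagen part of the extracellular matrix of the ureter wall. The list has 42 named genes, and every probe whose gene name on the array is one of them was taken, with no threshold on a measured value. The list itself was drawn up with earlier results of these data known, so its share of calls is a description. All 42 were on the array, out of 31693 gene names, with 56 probes on 65 spots. A gene was tested where a probe was well above background in both RNAs of at least 1 genotype label. That left 40 of the 42, represented by 53 probes, among 21978 genes tested. Comp, a cartilage thrombospondin, and Omd, the proteoglycan osteomodulin, were not well above background in any channel and are not described further.

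Ureters were dissected from NMRI mouse embryos at E14.5 and 200 ng of total RNA went into each labelling for 2 dual-colour arrays, each of which paired the genotypes. The Bmp4cKO genotype was Tbx18(cre/+);Bmp4(fl/fl), so that cre sits in 1 copy of Tbx18 and removes Bmp4 only where that transcription factor gene is active. Control embryos were Tbx18(+/+);Bmp4(fl/?), with no cre, at least 1 floxed Bmp4 allele and the other allele not stated. Array 1 has female labels in both channels and array 2 male labels, and the dyes were swapped between them. The labels do not tell how many embryos contributed to an RNA. The p-values rest on the spread between these 2 arrays and on a variance shared over all genes. How much of that spread is technical and how much lies between embryos cannot be told.

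Some signals went against the labels. Bmp4, the targeted gene, had log2 ratios, Bmp4cKO label over control label, of 3.04 and 3.71 on the 2 arrays, which is higher where the label says it was removed. It was read from chromosome 14, from 47003391 to 47003450 (mouse build mm9), and the labels do not place it inside or outside the floxed part. Whether it measures the deletion itself thus cannot be told. Why Bmp4 was higher under the Bmp4cKO label was not tested. Tbx18 went the same way, at 0.85 and 1.08. In the authors' deposited table the signs are opposite, with signed folds of -8.16 and -13.9 for Bmp4. On array 2 the Y-linked gene Ddx3y had a processed signal of 2720 in the RNA labelled control and 6.25 in the RNA labelled Bmp4cKO, although both carry the male label. Eif2s3y, also Y-linked, had 2741 and 8.68, and Xist, which female cells transcribe, had 85.2 and 2120. On array 2 a difference of sex between the RNAs thus cannot be told apart from the genotype label. Every direction below follows the dye labels: "higher" means higher in the RNA labelled Bmp4cKO, the RNA with more Bmp4 signal, and all directions turn if the dye labels are exchanged.

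Elastic fibres consist of a core of cross-linked elastin on a scaffold of fibrillin microfibrils, and let a tube recoil after it is stretched. Fibulins and lysyl oxidases assemble and cross-link that core. Small leucine-rich proteoglycans bind collagen fibrils and growth factors, while large proteoglycans such as versican hold water through hyaluronan. Matricellular proteins are secreted into the matrix but mainly modify how cells attach to it and receive signals. In the ureter such matrix is laid down by the mesenchyme that forms the lamina propria, the smooth muscle coat and the outer adventitia. The genes used to check this label, Eln, Dcn and Postn, were well above background in all 4 channels.

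Of the 40 tested members 2 were higher and 2 lower at a limma adjusted p under 0.05. They were Smoc1 and Aspn, which rose, and Smoc2 and Tnc, which fell. With median centring in place of loess 0 members were called by limma, 11 had an unadjusted p under 0.05, and the adjusted p of these 4 was 0.30 to 0.31; Aspn was then no longer past 2-fold on both arrays. The 4 calls are 10% of the members, beside 1.91% of all genes tested (0.887% higher and 1.02% lower). The same 4 members, and no others, were past 2-fold on each array with the same sign, beside 1.2% of all genes tested (0.578% higher and 0.619% lower). The median log2 ratio of the members was -0.03, and that of all genes tested was -0.0092. On both arrays 12 members lay above 0 and 17 below, or 30% and 42.5%, beside 28.2% and 30.6% of all genes. The other 11, or 27.5%, had opposite signs on the arrays, beside 41.2% of all genes. In bulk RNA, a different share of the cells that make a transcript and a different amount of it per cell cannot be told apart.

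**Figure D1:**
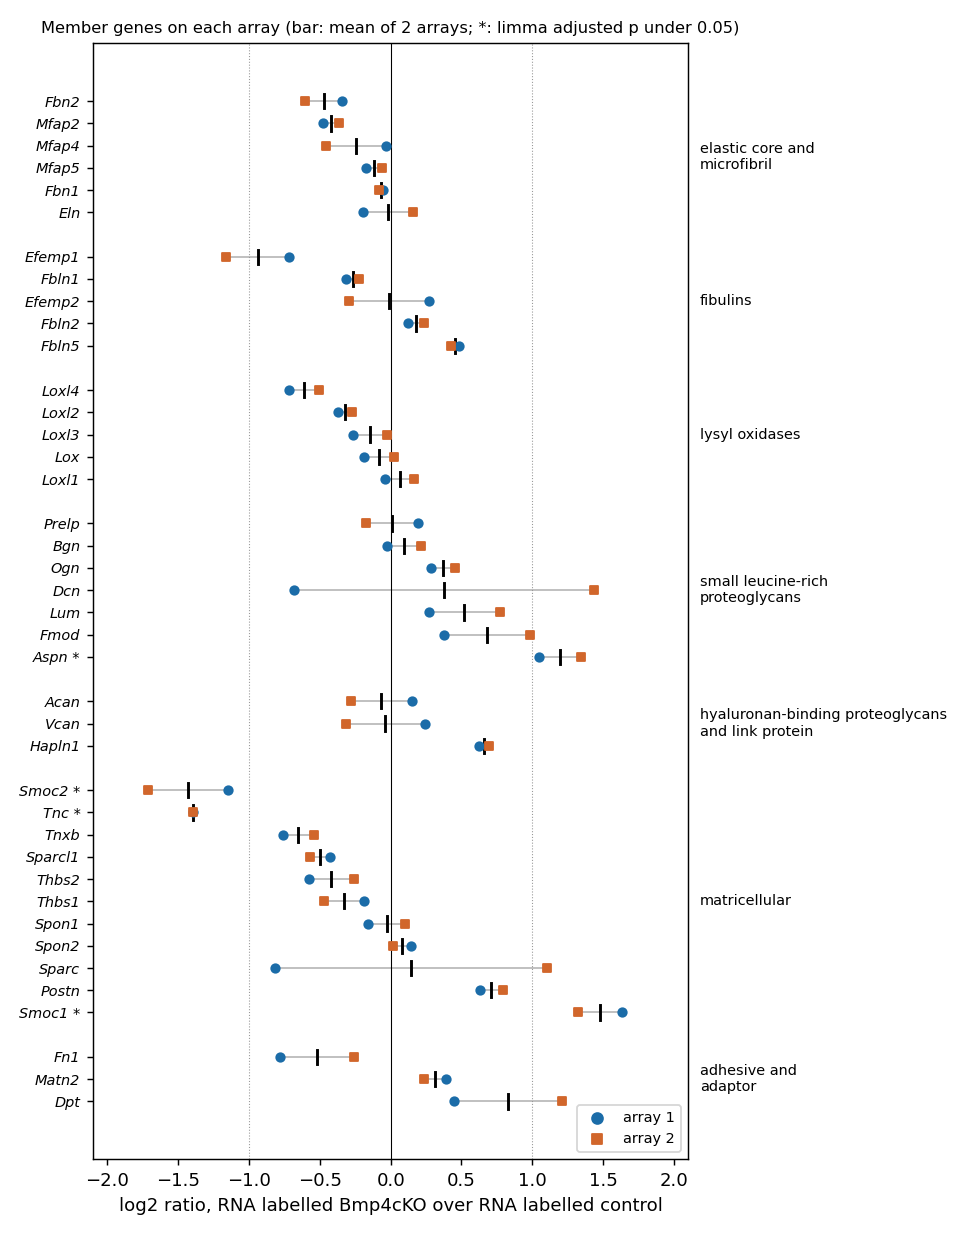
Log2 ratio, Bmp4cKO label over control label (horizontal axis) for the 40 tested members, grouped by role. Circles are array 1, squares array 2 and black bars their mean; dotted lines mark 2-fold, and asterisks mark Smoc1, Aspn, Smoc2 and Tnc, the genes past the limma threshold. Dcn and Sparc stand out by the distance between their arrays.

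The 2 SMOC genes, which encode closely related secreted calcium-binding proteins of the SPARC family, went in opposite directions. SMOC proteins are known to act on BMP signalling outside the cell. Smoc1 had processed signals of 1228 and 1435 in the RNAs labelled Bmp4cKO of arrays 1 and 2, and 391 and 536 in those labelled control. The lowest Bmp4cKO signal thus lay above the highest control signal. Its log2 ratios were 1.63 and 1.32, a mean of 1.48 ± 0.22 (SD, n = 2 arrays), or 2.78-fold higher (limma adjusted p = 0.023). Smoc2 had 10491 and 12515 in the RNAs labelled Bmp4cKO, and 25526 and 39069 in those labelled control, again without overlap. Its log2 ratios were -1.15 and -1.71, a mean of -1.43 ± 0.40 (SD, n = 2 arrays), or 2.69-fold lower (limma adjusted p = 0.035). In mm9 the Smoc1 probe lies on chromosome 12 from 82286760 to 82286819 and the Smoc2 probe on chromosome 17 from 14541664 to 14541723.

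Tnc encodes tenascin-C, a large glycoprotein that loosens cell adhesion and is abundant in embryonic mesenchyme and tendon. Its brighter probe had processed signals of 124 and 130 in the RNAs labelled Bmp4cKO and 376 and 409 in those labelled control. The ratios were nearly equal on both arrays, at -1.39 and -1.40, a mean of -1.39 ± 0.0028 (SD, n = 2 arrays), or 2.63-fold lower (limma adjusted p = 0.021). That probe lies on chromosome 4 from 63643728 to 63643787. A second probe covers a stretch of 764 bases, from 63674248 to 63675011, and so spans at least 1 intron. It was well above background only in the RNAs labelled control, with processed signals of 29.5 and 41.1 there and 5.09 and 6.39 in the RNAs labelled Bmp4cKO. By this probe Tnc was at least 1.28-fold lower, taking the dim side at no less than the lowest signal well above background; its measured ratios were -0.67 and -0.81. This second probe passed the filter only through the RNAs labelled control, so its sign is no further support for the brighter probe.

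Aspn encodes asporin, a small leucine-rich proteoglycan that binds collagen and is known to restrain BMP and TGF-beta ligands. Its processed signals were 630 and 901 in the RNAs labelled Bmp4cKO and 290 and 339 in those labelled control. The log2 ratios were 1.05 and 1.34, a mean of 1.19 ± 0.21 (SD, n = 2 arrays), or 2.29-fold higher (limma adjusted p = 0.031). In mm9 this probe covers chromosome 13 from 49662479 to 49662538. For these 4 genes the signals of the 4 RNAs did not overlap between the labels. The genes were picked by their ratios on these arrays, so that separation is no further support. The share of all genes without overlap is not given here. The mean log2 red over green of the 4 genes lay between -0.28 and 0.15. Over all genes its 5th and 95th percentiles were -0.25 and 0.30. A call favours ratios that agree between the dye-swapped arrays, so values near 0 came partly from the selection. These values do not test for a dye effect, which on 2 arrays is also mixed with the sex labels.

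**Figure D2:**
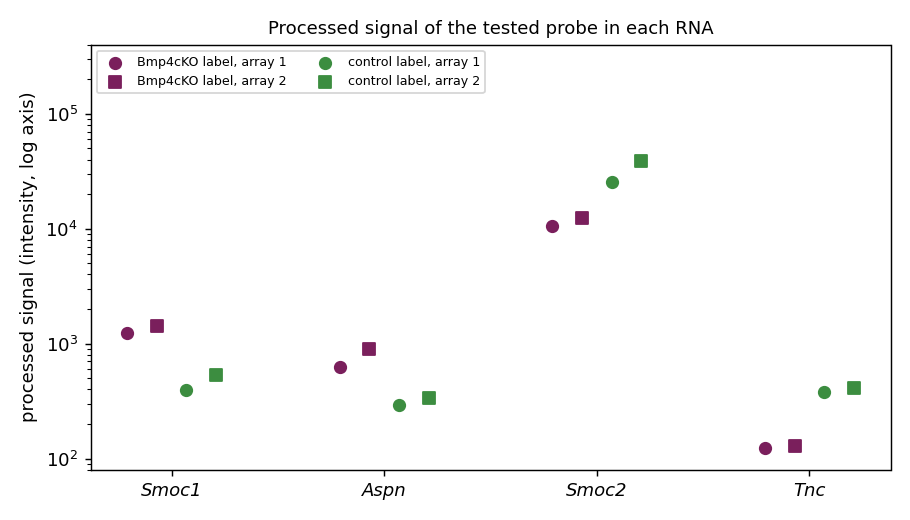
Processed signal of the tested probe (vertical log axis, scanner intensity) of Smoc1, Aspn, Smoc2 and Tnc in each of the 4 RNAs. Purple marks the Bmp4cKO label and green the control label, circles array 1 and squares array 2. The genes were picked by their ratios. Within each the labels do not overlap, as for Smoc2 with 10491 and 12515 against 25526 and 39069. Heights are not comparable between genes.

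Of the 4 called genes, only Aspn and Tnc were matched by symbol to a promoter in RefSeq (GRCm38.p6), so the 250 bases before their start are shown. These 2 proteoglycan and matricellular genes moved in opposite directions. Capitals mark GTCT and its reverse complement AGAC, the core to which SMAD proteins, the effectors of BMP and TGF-beta signals, bind. The Aspn stretch is chr13:49544193-49544442 on the plus strand. The Tnc stretch is chr4:64047016-64047265 on the minus strand, for the first of 2 starts in the table.
Aspn: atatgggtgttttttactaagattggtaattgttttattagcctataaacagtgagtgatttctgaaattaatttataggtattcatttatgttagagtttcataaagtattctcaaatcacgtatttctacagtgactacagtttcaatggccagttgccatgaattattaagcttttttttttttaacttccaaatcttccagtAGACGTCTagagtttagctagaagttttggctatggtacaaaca
Tnc: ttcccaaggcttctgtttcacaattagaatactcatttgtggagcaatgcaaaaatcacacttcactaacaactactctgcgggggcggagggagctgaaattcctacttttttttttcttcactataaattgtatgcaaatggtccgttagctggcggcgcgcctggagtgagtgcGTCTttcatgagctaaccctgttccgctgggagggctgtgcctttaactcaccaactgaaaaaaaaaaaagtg
The Aspn stretch holds 2 matches to this motif on either strand, side by side, and the Tnc stretch holds 1. Of 32851 promoters of this length, 82.9% hold at least 1, and the median is 2 matches. The GC-rich motif GGCGCC, also bound by SMAD proteins, was in neither stretch and in 9.59% of all. These matches describe the letters only.

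The elastic core and microfibril genes showed no called change. By limma 0 of the 6 passed, 2 had an unadjusted p under 0.05, 5 lay below 0 on both arrays, and the median was -0.18. Eln, the elastin gene itself, had processed signals of 2223 and 3119 in the RNAs labelled Bmp4cKO and 2601 and 2840 in those labelled control, which overlap. Its log2 ratios were -0.20 and 0.16, and the 95% interval of its mean from limma ran from -0.38 to 0.34. Fbn1, the main fibrillin, was at -0.05 and -0.08, with an interval from -0.36 to 0.23. Fbn2, the fibrillin of embryonic microfibrils, had -0.34 and -0.60, or -0.47 ± 0.18 on average (SD of 2 arrays, limma adjusted p = 0.19), and a second probe had -0.45 and -0.27. Mfap2, which encodes a microfibril-associated glycoprotein, had -0.48 and -0.36 (limma adjusted p = 0.20), and -0.27 and -0.32 on a second probe. Mfap4 and Mfap5 had means of -0.24 and -0.12.

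Of the 5 fibulin genes 0 were called by limma and 2 had an unadjusted p under 0.05. The furthest from 0 was Efemp1, which encodes fibulin-3. Its processed signals were 1411 and 990 in the RNAs labelled Bmp4cKO and 2234 and 2353 in those labelled control. The log2 ratios were -0.72 and -1.16, a mean of -0.94 ± 0.31 (SD, n = 2 arrays). It missed the threshold, with a limma adjusted p of 0.062, and passed with a robust prior (limma adjusted p = 0.047) and with plain background subtraction (limma adjusted p = 0.048). Fbln5, whose product tethers elastin to cells and microfibrils, lay on the other side of 0, at 0.48 and 0.43 (limma adjusted p = 0.16); its second probe did not pass the filter. Fbln1 had a mean of -0.27 and Fbln2 of 0.18. Efemp2, encoding fibulin-4, had opposite signs, at 0.27 and -0.29.

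The lysyl oxidases, copper enzymes that cross-link elastin and collagen, had 0 called members of 5 by limma, 2 with an unadjusted p under 0.05, and a median of -0.15. Loxl4 was the furthest from 0, at -0.72 and -0.50, or -0.61 ± 0.15 on average (SD of 2 arrays, limma adjusted p = 0.10), and -0.68 and -0.24 on its second probe. Lox, the founding member, was at -0.19 and 0.03 on the tested probe and at -0.37 and -0.62 on the other. Loxl1, needed for elastic fibre renewal, was at -0.04 and 0.17, and at -0.27 and 0.24 on a second probe, and Loxl3 had a mean of -0.15.

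The probes of Loxl2 differed on array 2. The tested probe, on chromosome 14 from 70095254 to 70095313, had log2 ratios of -0.37 and -0.27. The probe from 70092141 to 70092200 had -0.31 on array 1 and 2.01 on array 2, and the one from 70090017 to 70090076 had -0.25 and 1.48. On array 2 the latter 2 probes had processed signals of 6546 and 8099 in the RNA labelled Bmp4cKO, against 1599 and 2790 in the RNA labelled control. In the 2 RNAs of array 1 their signals were 949 and 1171, and 1749 and 2198. The RNA labelled Bmp4cKO of array 2 was therefore the one that stood apart, and only at these 2 of the 3 probes on chromosome 14. A further probe that the array names Loxl2 lies on chromosome 2 from 71475085 to 71475144 and had 0.10 and -0.13. With the mean of all passing probes Loxl2 was at 0.28 in place of -0.32, so no direction is given for it.

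**Figure D3:**
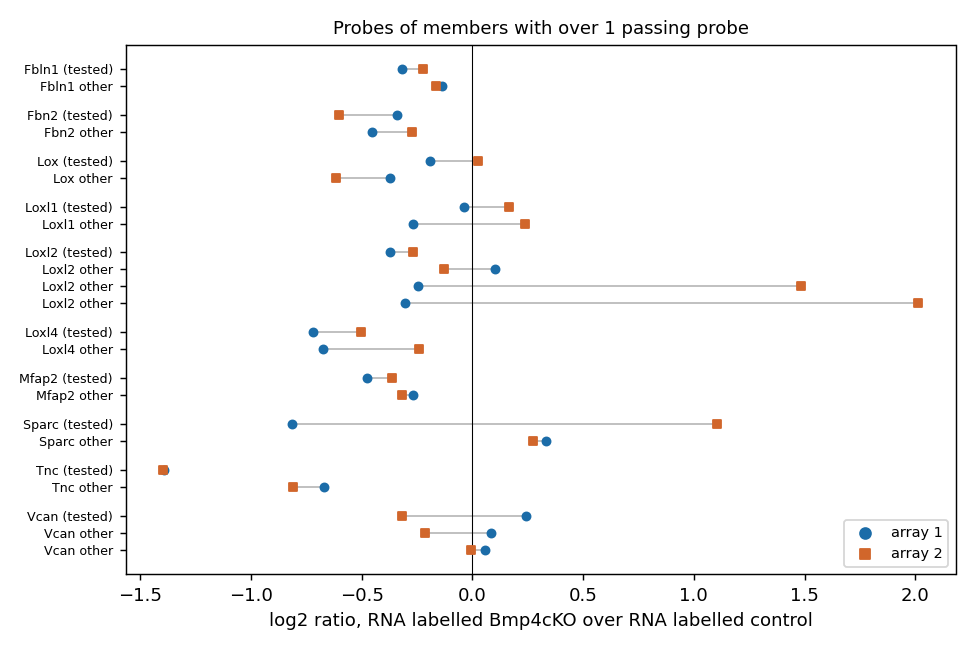
Log2 ratio, Bmp4cKO label over control label (horizontal axis) for each passing probe of the 10 members that have over 1, with the probe used in the test marked. Circles are array 1 and squares array 2. The probes of Loxl2 spread from -0.27 to 2.01 on array 2, while those of Fbln1, Fbn2, Loxl4 and Mfap2 lay below 0 throughout. The dimmer Tnc probe passed only through the RNAs labelled control.

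Of the 7 small leucine-rich proteoglycans tested, Aspn rose and none fell. Their median was 0.38 (0.27 on array 1, 0.77 on array 2), and 4 lay above 0 on both arrays and 0 below. Fmod, whose product fibromodulin binds collagen fibrils, had processed signals of 1022 and 1621 in the RNAs labelled Bmp4cKO and 759 and 809 in those labelled control. Its ratios were 0.37 and 0.98, or 0.68 ± 0.43 on average (SD of 2 arrays, limma adjusted p = 0.17). Lum, the fibril-binding lumican, had 0.27 and 0.77 (limma adjusted p = 0.24), and Ogn, osteoglycin, had 0.29 and 0.46 (limma adjusted p = 0.26). Bgn, the X-linked biglycan gene, was at -0.03 and 0.21, and Prelp at 0.19 and -0.18.

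Dcn, the decorin gene, had opposite signs on the arrays. Its processed signals were 56681 and 81393 in the RNAs labelled Bmp4cKO and 68315 and 35624 in those labelled control. The log2 ratios were -0.68 and 1.43, and the 95% interval of the mean from limma ran from -0.87 to 1.62. In terms of dye it was higher in red on both arrays, by 0.68 and 1.43. The tested probe of Sparc, which encodes the collagen-binding protein osteonectin, behaved alike, with ratios of -0.81 and 1.10, or 0.81 and 1.10 in red over green. A dimmer probe of Sparc had 0.33 and 0.27. The spots of both genes were among the brightest. Of 430 genes at least as bright as that Sparc probe, 394 were higher in red on both arrays after loess, with a median log2 red over green of 0.63 and 0.55. Lum, the third member among them, was not higher in red on both arrays, with -0.27 and 0.77 in red over green. The part of this dye difference in the spread of Dcn and Sparc was not tested, and it takes opposite signs in the 2 arrays' ratios. The arrays differed by more than 1 on the log2 scale for these 2 members, or 5% of those tested, and for 2.43% of all genes.

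**Figure D4:**
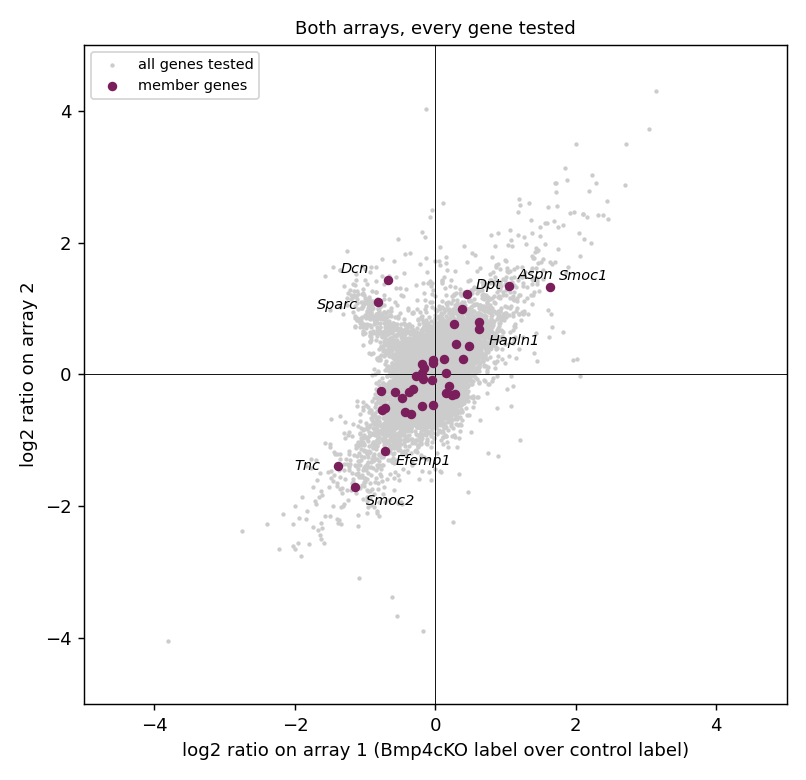
Log2 ratio, Bmp4cKO label over control label, on array 1 (horizontal axis) against array 2 (vertical axis) for the 21978 genes tested, with the 40 members in purple. Smoc1 and Aspn lie in the upper right and Tnc and Smoc2 in the lower left; Dcn, at -0.68 and 1.43, and Sparc, at -0.81 and 1.10, lie in the upper left.

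Of the 3 hyaluronan-binding genes 0 were called by limma and 1 had an unadjusted p under 0.05. Hapln1, the link protein that fastens proteoglycans to hyaluronan, had processed signals of 1625 and 1771 in the RNAs labelled Bmp4cKO and 957 and 1133 in those labelled control. Its ratios were 0.63 and 0.69, with a limma adjusted p of 0.071. Its partner Vcan, the versican gene, was at 0.24 and -0.32 on the brightest probe, and the means of its 3 probes lay between -0.07 and 0.03. Acan, the cartilage proteoglycan aggrecan, was dim and at 0.15 and -0.28.

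Besides the 3 called genes, 8 matricellular genes were tested. Postn, the periostin gene of collagen-rich mesenchyme, had signals of 10874 and 13690 in the RNAs labelled Bmp4cKO and 7408 and 7640 in those labelled control. Its ratios were 0.63 and 0.79 (limma adjusted p = 0.067). Tnxb, encoding tenascin-X, which spaces collagen fibrils, had 526 and 618 against 912 and 909, and ratios of -0.76 and -0.54 (limma adjusted p = 0.087). Both genes thus lay just outside the threshold, on different sides of 0. Sparcl1, Thbs2 and Thbs1, which encode a SPARC relative and the thrombospondins that restrain angiogenesis, had means of -0.50, -0.42 and -0.33. Spon1 and Spon2, the spondins, were at -0.03 and 0.08. Of the 3 adhesive genes 0 were called by limma and all 3 had an unadjusted p under 0.05. Dpt, which encodes dermatopontin, a small binder of decorin, had ratios of 0.45 and 1.21 (limma adjusted p = 0.15). Matn2, a filament-forming matrilin, was at 0.39 and 0.24, and Fn1, the fibronectin gene, at -0.78 and -0.26 (limma adjusted p = 0.25).

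Of the 36 members not called, 17 had an unadjusted limma p under 0.05, 8 of them above 0 and 9 below, beside 3191 of the 21978 genes tested. For 30 of the 36 the 95% interval from limma lay within a 2-fold change in either direction.

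Several members are neighbours on a chromosome, in the order of the RefSeq table (GRCm38.p6), with no other coding gene between them. These groups were chosen after their values were seen. On chromosome 13, Ecm2 and Ogn flank the group of Aspn and Omd, and had means of 0.30 and 0.37 where Aspn had 1.19. On chromosome 10, Dcn, Lum, Kera and Epyc are consecutive. Kera, the keratocan gene, fell in that group, at -1.03 and -0.97, with an SD of 0.05 over the 2 arrays (limma adjusted p = 0.034), while Lum beside it had 0.27 and 0.77 and Epyc had 0.16 and 0.49. On chromosome 1, Fmod was at 0.68, Prelp at 0.0081 and Optc at 0.36. Hapln1 lies next to Vcan, and Hapln3, at -0.70 and -0.60 (limma adjusted p = 0.075), next to Acan. Smoc2 is followed by Thbs2, at -0.58 and -0.26. Neighbours were thus not uniform in sign.

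**Figure D5:**
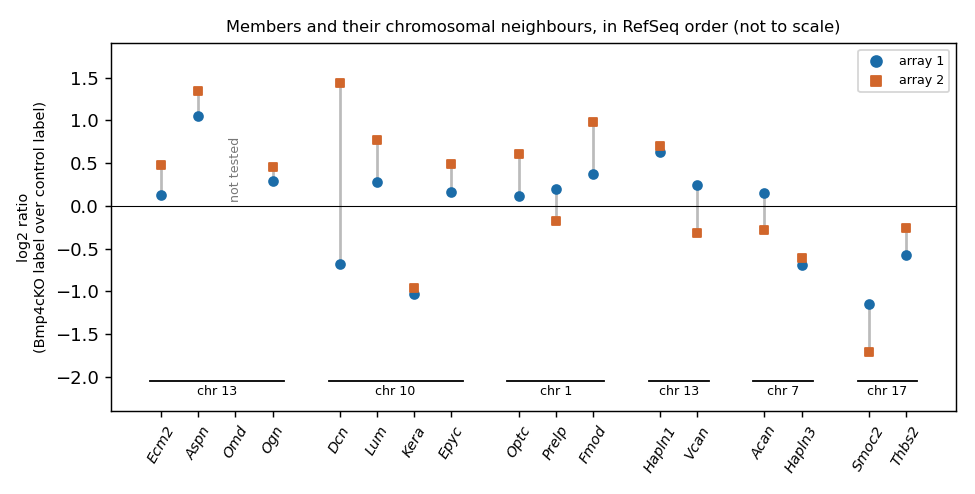
Log2 ratio, Bmp4cKO label over control label (vertical axis) for members and adjoining genes, in chromosome order and not to scale. Circles are array 1 and squares array 2; Omd was not tested. Kera, at -1.03 and -0.97, lies below 0 between Lum and Epyc, which lie above it on both arrays.

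Other genes of the same processes were tested in 4 lists, beside the 1.91% of all genes called and the 3191 of 21978 with an unadjusted p under 0.05. Of 16 elastic fibre assembly genes 0 were higher and 1 was lower by limma, 6 had an unadjusted p under 0.05, and the median was -0.09. The called gene was Hmcn1, encoding the fibulin relative hemicentin-1, at -0.85 and -1.13, or -0.99 ± 0.19 on average (SD of 2 arrays, limma adjusted p = 0.041). Ltbp4, whose product brings fibulin-5 and elastin to microfibrils, was at -0.58 and -0.56 (limma adjusted p = 0.099). Emilin2, at -0.69 and -0.56, had a mean further below 0, and Ltbp1, at 0.75 and 0.34, lay above 0. Neither was called. On both arrays 5 genes of this list lay above 0 and 8 below. Of 16 other proteoglycan and hyaluronan synthase genes tested, Kera was the 1 lower gene, 0 were higher by limma, 7 had an unadjusted p under 0.05, and the median was -0.19. Of 19 other matricellular genes 0 were called by limma in either direction, with Spp1, osteopontin, at -0.69 and -1.58 and Ccn2, connective tissue growth factor, at 0.71 and 0.85 (limma adjusted p = 0.10 and 0.056). Of the 19, 8 had an unadjusted p under 0.05. Of 21 genes that build glycosaminoglycan chains 0 were called by limma, 3 had an unadjusted p under 0.05, and the furthest from 0, Chst7 and Ust, were at 0.45 and -0.41.

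Markers of cells that may lie in or beside the dissected tube differed by list. Tendon genes are a reference for Tnc. Of 4 tested, Scx, at -0.96 and -1.50 (limma adjusted p = 0.042), and Kera were lower. Mkx, at -0.50 and -0.25, and Chad, at 0.42 and 0.0066, were not called. Tnmd was not well above background in both RNAs of either label. The summed processed signal of the 4 was 1930 and 1731 in the RNAs labelled Bmp4cKO and 3298 and 3640 in those labelled control. Of 6 kidney stroma genes Alx1 was lower, at -1.06 and -1.55 (limma adjusted p = 0.037), and 3 had an unadjusted p under 0.05. Ren1 was the furthest from 0, at -0.62 and -3.38, while the kidney stroma factor Foxd1 was at -0.07 and -0.12. Their sums were 57568 and 57176 in the RNAs labelled Bmp4cKO, within the 48987 and 70902 of those labelled control. Of 7 cartilage genes tested 0 were called by limma and 3 had an unadjusted p under 0.05, with Matn1 not well above background. Those 3 differed in sign: Col9a3 and Col9a1 had means of 0.80 and 0.50, and Col11a1 was at -0.36 and -0.41. Over both arrays 3 of the 7 lay above 0, 2 below and 2 had opposite signs. The cartilage sums were 17038 and 24102 against 13292 and 16611. Of 6 smooth muscle genes 3 were higher, Myh11, Actg2 and Cnn1 at means between 2.14 and 2.48, with sums of 30727 and 45797 against 18851 and 16021. Of 5 mesothelial genes Krt19, Msln and Upk3b were higher and Wt1 lower, with sums of 23426 and 27434 against 12903 and 13459. Lrrn4 was not called, at -0.24 and -0.55. The mesothelial list was thus split, with 3 genes above 0 on both arrays and 2 below. The 8 urothelial genes, with Upk1b, Upk3a, Upk2 and Upk1a higher, summed to 54186 and 52539 against 26470 and 31445. The others were not called: Krt18 and Cdh1 had means of 0.67 and 0.56, and Epcam and Krt5 of 0.14 and 0.06. Among neuron and Schwann cell genes, Tubb3 and Elavl3 were lower, at means of -1.52 and -0.89 (limma adjusted p = 0.023 and 0.042). Of 6 endothelial and 4 leukocyte genes 0 were called by limma, with 3 and 1 at an unadjusted p under 0.05, and of 6 ureteric mesenchyme genes Tbx18 was higher and Aldh1a2 lower. Furthest from 0 were Sox17 and Cldn5 among the endothelial genes, at 0.66 and 0.62, and Ptprc and Adgre1 among the leukocyte genes, at -0.80 and -0.07. The part of these cells in the members' values was not tested.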

How the data were processed

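Per the file headers, the authors scanned both arrays and quantified spots with Agilent Feature Extraction 10.7.3.1, with probe positions on mm9. The authors deposited linear intensities of spot and background, processed intensities after the software's detrending and dye normalization, and their red-to-green LogRatio, which is a log10 value. The authors' deposited value table holds a score per probe. It proved to be a signed fold change whose size lay within 0.01 (log2) of LogRatio for 99.6% of probes, with the sign of red over green on array 1 and of green over red on array 2. Both columns have a median of 1, and its direction is not stated.

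Each array had 44397 spots, 1377 of them controls. In each channel 69.3% to 74.6% of spots passed the scanner's well-above-background call, and the median spot was 7.14 to 15.6 times its background. Saturated probe spots numbered 0, and 231 and 235 outlier spots were dropped. With 2 arrays, their number limits precision. Both arrays lie on 1 slide.

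Background was corrected with normexp (offset 50) and ratios were normalized within arrays by loess (limma 3.58.1, R 4.3.3), giving controls no weight. Ratios were turned by the dye labels. Probes were named through a RefSeq table (GRCm38.p6) by accession (26412), symbol (3854) or synonym (735), and 8428 kept the array's name; members were taken by the array's name. The brightest probe that passed stood for its gene. The fit used lmFit and eBayes, with 1 residual and 4.03 prior degrees of freedom, and Benjamini-Hochberg over 21978 genes, of which 195 were higher and 225 lower. The functions were tested on simulated data.

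The members, lists and tests were chosen with earlier results of these data known, and the directions of Bmp4, Smoc2, Postn, Dpt, Hapln1 and the marker genes are no independent support. Named in full were members past the threshold, at least 2-fold on both arrays or with probes of opposite sign, and the 2 largest of each role group. In other lists up to 4 called genes, or else the 2 largest, were named. Ltbp4, Hapln3, Ecm2, Epyc, Optc, Foxd1 and Ren1 were added after their values were seen. So were Col11a1, Mkx, Chad, Krt18, Cdh1, Epcam, Krt5, Lrrn4, Emilin2 and Ltbp1. The neuron and Schwann cell list is given in part, and the rest of it is not reported here. Alternatives were median centring, plain subtraction, the processed signals, other filters, a robust prior, the mean of probes, separate channels, the authors' table and leaving out each array.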

Additional observations from a re-analysis of the deposited data

Results flagged for a closer look

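For 11 members the ratio had opposite signs on array 1, with female labels, and array 2, with male labels and opposite dye orientation. On array 2 Y-linked signal was seen only in the RNA labelled control, so its 2 RNAs may differ in sex. The differences between the arrays were not tested, since each sex label has 1 array. Array 2 minus array 1 on the log2 scale was 2.11 for Dcn and 1.92 for Sparc. It was 0.36 for Eln, 0.26 for Spon1, 0.24 for Bgn, 0.21 for Lox and 0.20 for Loxl1. It was -0.57 for Efemp2, -0.56 for Vcan, -0.43 for Acan and -0.37 for Prelp.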

How the results depend on the processing

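With median centring in place of loess 0 members and 0 genes in all were called by limma, while 11 members and 1760 genes had an unadjusted p under 0.05. Smoc1, Smoc2 and Tnc still changed at least 2-fold on both arrays in that setting. In the other 7 tested settings 4 or 5 members were called, always with Smoc1, Aspn, Smoc2 and Tnc among them, and Efemp1 was the fifth. Fitted as separate channels with no replicate block, 4 members were called. Plain background subtraction raised the calls over all genes from 420 to 727. Array 2 alone had 8 members at least 2-fold changed and array 1 alone 4, the extra ones being Dcn, Dpt, Efemp1 and Sparc. Over the alternatives that kept both arrays Tnc lay between -1.63 and -1.07, Smoc2 between -1.46 and -1.33, Aspn between 1.19 and 1.26 and Smoc1 between 1.48 and 1.54. Leaving out an array leaves no residual degree of freedom, so no test was possible there. The authors' table, turned to the dye labels, carries no test; read with its printed signs, the higher and lower genes exchange. Dim probes such as the second of Tnc limit what can be measured.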
